A study of Saccharomyces cerevisiae with 10 samples.

Results

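The list of protein-bound RNA sites from nitrogen-starved yeast was compared with the list from log-phase yeast, both from polyA RNA of the light gradient fraction. The nitrogen list was taken whole, as its label defines it, and held 38936 of the 185005 sites, called clusters, over all lists of the series. The log-phase list held 61035 clusters. Another log-phase list, from light total RNA, held 51574 clusters and served as a further view of log-phase cells.

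The assay was gPAR-CLIP, in which 4-thiouracil built into RNA is crosslinked to bound protein by long-wave UV and all crosslinked RNA is recovered without an antibody. In the nitrogen group, wild-type BY4742 cells, labelled MATa with the alleles ura3Δ0, lys2Δ0 and leu2Δ0 and also his3Δ1, took up 4-thiouracil (200 µM) in synthetic defined medium at 30 °C and then spent 2 h in the same medium lacking nitrogen. The log-phase group was the same strain in the same medium with no starvation. Both groups received 4 pulses of 365 nm light, each of 150 mJ/cm2, the top of a sucrose gradient was kept, and proteins were biotinylated and captured. Each group had 2 replicates, but 1 cluster list pools both, so no test between the conditions was possible and no p-value is given. Every interval below is a 95% interval that covers counting error of clusters only. The lists carry no read counts, so the depth is unknown. A gene with more clusters may have had more RNA in the culture or more sites filled on the same RNA, and fewer cells and less RNA per cell cannot be told apart.

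Yeast given a rich nitrogen source shuts off genes for poor sources by nitrogen catabolite repression. When nitrogen runs out, the GATA factors Gln3 and Gat1 enter the nucleus and switch on permeases and the pathways that break down allantoin, urea and proline. The TORC1 kinase, which senses amino acids, is then less active, autophagy begins and the making of ribosomes slows. The stretch after the stop codon of an mRNA holds many known binding sites of proteins that set its decay, place and 3′ end.

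The sequences below show sites of the genes whose lists differed most, in R64 coordinates from the RefSeq genome sequence, written 5′ to 3′ on the RNA strand with T for U. Capitals mark the bases of the cluster or of the merged site, to which the coordinates refer, and lower case marks 10 bases on either side of sites in coding regions. The first set holds sites found in the nitrogen list and not in the log-phase list.
DAL5, coding region, chrX:720163-720182, plus strand: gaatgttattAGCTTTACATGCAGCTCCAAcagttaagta
SUL1, coding region, chrII:790305-790319, plus strand: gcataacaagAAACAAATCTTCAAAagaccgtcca
DAL80, coding region, chrXI:507201-507220, plus strand: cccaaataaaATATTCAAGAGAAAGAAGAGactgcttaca
DAL80, 3' flank, chrXI:507698-507720, plus strand: ACAACATTAAGAAAGGATGTAGC
DAL2, coding region, chrIX:410803-410828, plus strand: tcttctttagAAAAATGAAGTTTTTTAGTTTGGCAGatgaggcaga
ARG1, coding region, chrXV:219897-219922, plus strand: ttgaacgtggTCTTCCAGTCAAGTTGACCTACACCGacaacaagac
YHI9, coding region, chrVIII:168032-168059, minus strand: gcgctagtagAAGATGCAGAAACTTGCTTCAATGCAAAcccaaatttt
SER33, coding region, chrIX:221575-221604, minus strand: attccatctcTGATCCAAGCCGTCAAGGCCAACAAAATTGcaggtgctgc
DAL5, SUL1, DAL80 and DAL2 belong to the genes with the highest ratios and had no cluster in the log-phase light total RNA list. The DAL2 site covered the start codon, so the bases to its left lie before the coding region. The DAL80 site labelled 3′ flank, placed there by its midpoint, began inside the coding region and covered the stop codon. The ARG1, YHI9 and SER33 sites lay at least 100 nt from any cluster of the log-phase polyA list. SER33 was chosen for the width of this site and not for its ratio.

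The next set holds sites found in log phase and not in nitrogen starvation. It is shown because YPK2, HXT4 and TAT1 were among the lowest genes, and HXT3, RPS8A and STB3 held some of the widest such sites among those of at most 30 nt in genes with at least 8 clusters in each list.
YPK2, coding region, chrXIII:475051-475068, minus strand: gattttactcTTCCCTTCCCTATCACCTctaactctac
HXT4, coding region, chrVIII:288058-288080, minus strand: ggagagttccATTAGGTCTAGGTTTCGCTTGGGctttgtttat
TAT1, coding region, chrII:377075-377100, minus strand: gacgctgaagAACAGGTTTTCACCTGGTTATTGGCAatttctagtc
HXT3, coding region, chrIV:1163808-1163837, minus strand: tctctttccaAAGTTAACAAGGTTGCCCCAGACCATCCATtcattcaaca
RPS8A, coding region, chrII:88659-88688, minus strand: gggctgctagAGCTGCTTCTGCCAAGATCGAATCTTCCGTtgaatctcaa
STB3, coding region, chrIV:793722-793751, minus strand: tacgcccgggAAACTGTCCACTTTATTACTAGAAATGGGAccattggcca

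The last set holds sites present in both lists, shown for comparison with the gained and lost ones.
DAL5, coding region, chrX:720580-720594, plus strand: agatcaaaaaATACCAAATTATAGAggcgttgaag
ARG1, 3' flank, chrXV:220501-220518, plus strand: ATAACGATCTCTTCCTCC
IDP1, 3' flank, chrIV:336118-336146, plus strand: GTAATCGAATTTACGTAGCCCAATCTACC
RPL7B, 3' flank, chrXVI:174735-174758, plus strand: AATAAATAATATTTCTCTTCATAT
HXT3, coding region, chrIV:1164610-1164638, minus strand: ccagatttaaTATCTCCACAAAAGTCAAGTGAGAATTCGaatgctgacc
The shared sites of ARG1, IDP1 and RPL7B began within 50 nt of the stop codon. The IDP1 site began inside the coding region and covered the stop codon.

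Most nitrogen clusters fell on a site that was also bound in log phase. Of the 38936 nitrogen clusters, 27344 shared 1 nt or more with a same-strand log-phase cluster, or 70.2% (69.8 to 70.7%, Wilson). Of the 61035 log-phase clusters, 27535 overlapped a nitrogen cluster, or 45.1% (44.7 to 45.5%). The lists differ in length, so these shares cannot be equal. The median cluster was 11 nt wide in nitrogen starvation and 10 nt in log phase, and the clusters covered 459603 nt and 693218 nt. Merging both lists gave 71945 sites, of which 11592 were in the nitrogen list only, 26853 in both and 33500 in the log-phase list only. A nitrogen-only site lay at a median of 24 nt from the nearest log-phase cluster, so many lay beside a site bound in log phase. A log-phase-only site lay at a median of 110 nt from the nearest nitrogen cluster.

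Sites found in both lists were the wider ones, with a median of 14 nt, against 10 nt for nitrogen-only and 9 nt for log-phase-only sites. The light total RNA list of log phase held 22.9% of the nitrogen-only sites (22.1 to 23.7%), 41.9% of the shared sites (41.3 to 42.4%) and 17.5% of the log-phase-only sites (17.1 to 17.9%). Absence from the log-phase polyA list is therefore not absence from log-phase cells: the share found in total RNA was higher for nitrogen-only than for log-phase-only sites. In coding regions total RNA held 28.9% of the nitrogen-only and 23.0% of the log-phase-only sites. The excess was also seen in 3′ flanks (24.7% and 18.3%) and 5′ flanks (34.2% and 27.8%). Introns (24.3% and 27.5%) and tRNA (67.3% and 85.5%) went the other way.

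The base at the end of the sites also differed between the lists. The last base was G in 19.6% of nitrogen clusters and in 29.0% of log-phase clusters. Among merged sites it was G in 20.0% of the nitrogen-only (19.3 to 20.7%), 28.5% of the shared (28.0 to 29.1%) and 33.9% of the log-phase-only sites (33.4 to 34.4%). Over all bases, G made up 5.63% of the nitrogen and 6.81% of the log-phase clusters. Whether this end difference takes part in the gains and losses of single sites was not tested.

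By region, the nitrogen list was shifted towards the 3′ ends of mRNAs. The 150 nt past the stop codon, called the 3′ flank here, held 19.8% of nitrogen clusters and 15.4% of log-phase clusters, a ratio of 1.28 (1.25 to 1.32). Coding regions held 40.0% and 43.1% in nitrogen starvation and log phase, a ratio of 0.930 (0.912 to 0.948). The 100 nt before the start codon, the 5′ flank, held 5.34% and 5.18%, a ratio of 1.03 with an interval that included 1. Among clusters on mRNA genes alone, the 3′ flank took 29.9% in nitrogen starvation (29.4 to 30.5%) and 23.9% in log phase (23.5 to 24.3%). In the light total RNA list of log phase, made with another RNA selection, it took 13.2% (12.8 to 13.5%). The log-phase lists thus lay further apart from each other than the polyA lists did. Without the ribosomal protein genes the difference between the polyA lists was 5.76 percentage points, against 6.03 with them.

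The excess was seen right after the stop codon. Between 25 and 49 nt past it lay 6.47% of nitrogen and 4.92% of log-phase mRNA clusters. In the bin from -300 to -276 nt, inside the coding region, the shares were 1.47% and 1.51%. Within coding regions cut into 10 equal parts, the last part held 12.6% of nitrogen coding clusters (12.1 to 13.1%) and 10.6% of log-phase ones (10.2 to 10.9%). The part next to the start codon held 8.67% (8.24 to 9.13%) and 9.35% (9.01 to 9.71%). Sites in the 3′ flank were also the most often shared among the regions of mRNA exons: 80.4% of the nitrogen and 66.5% of the log-phase clusters there overlapped the other list.

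**Figure D1:**
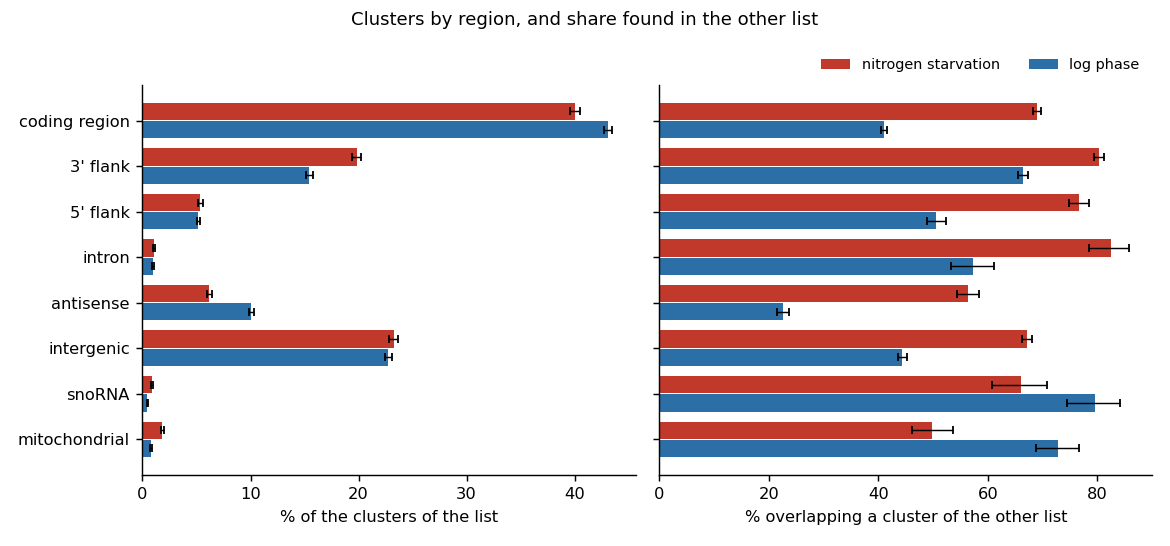
Left, the percentage of each list's clusters in 8 regions; right, the percentage of those clusters that overlap a cluster of the other list by at least 1 nt. Red bars are nitrogen starvation and blue bars log phase, with 95% Wilson intervals; the 3′ flank is higher and antisense clusters lower in nitrogen starvation (6.20% and 10.1%).

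Clusters antisense to a gene were fewer in nitrogen starvation. They made up 6.20% of the nitrogen list, 2414 clusters, and 10.1% of the log-phase list, 6140 clusters, a ratio of 0.616 (0.588 to 0.646). They lay opposite 1241 genes in nitrogen starvation and 2500 in log phase, with 1021 genes in both. Among log-phase clusters, antisense ones were also the least shared: 22.5% had a nitrogen counterpart. Among nitrogen clusters, 56.4% of antisense ones were shared, above tRNA (46.2%) and mitochondrial clusters (49.9%). In number, mitochondrial clusters went the other way from antisense ones. There were 708 in nitrogen starvation and 472 in log phase, a ratio of 2.35 (2.09 to 2.65). snoRNA clusters numbered 329 and 265, a ratio of 1.95 (1.65 to 2.30).

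Per gene, the measure was the covered length per 100000 nt of clustered sequence, with 20 nt added, and each log2 ratio below is given relative to the median of all genes tested. That median was 0.15 before it was subtracted. Of 5756 genes with a cluster, 4813 had at least 5 clusters over both lists and were tested, which here means compared by size with no p-value. A gene was called at 2-fold: 211 genes, 4.38%, were at least 2-fold higher in nitrogen starvation and 236, 4.9%, at least 2-fold lower. The evidence per gene was thin, since 61 of the 211 higher and 31 of the 236 lower genes had a ratio of cluster counts whose own interval left out 1. No correction was made in them for how many genes were compared, nor for naming genes by their ratio.

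The 10 highest genes with at least 8 clusters held 3 genes of the nitrogen catabolite system and 4 of arginine, sulfate and vitamin B6 metabolism. DAL5, the permease for allantoate and ureidosuccinate, had 25 clusters in nitrogen starvation and 3 in log phase, a ratio of 13.1 (3.99 to 67.6), and none in the log-phase total RNA list. DAL80, a GATA repressor that is itself switched on by Gln3, had 8 clusters in nitrogen starvation and 0 in log phase, with an exact interval of the ratio that began at 2.68. DAL2, encoding allantoicase, had 7 and 1 clusters.

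SUL1, a high-affinity sulfate permease, had 12 clusters in nitrogen starvation and 0 in log phase, with an interval that began at 4.36. SUL1 had no cluster in total RNA of log phase either. ARG7 and ARG1, which make ornithine and argininosuccinate on the way to arginine, had 21 and 23 clusters in nitrogen starvation and 4 each in log phase. SNZ1, a pyridoxine synthesis gene known from stationary phase, had 9 and 1, but 13 in log-phase total RNA, a ratio to that list of 0.917 (0.346 to 2.32). YHI9 had 17 and 3 clusters, a ratio of 8.88 (2.57 to 47.3).
The other 2 of the 10, Q0255 and BI3, lie in the mitochondrial genome and are described with it.

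Among the 10 lowest genes were permeases and a kinase of the TORC2 pathway. YPK2, that kinase, had 0 clusters in nitrogen starvation and 16 in log phase, with an interval of the ratio that ended at 0.406. HXT4, a glucose transporter, had 3 and 22 clusters, a ratio of 0.214 (0.0410 to 0.711). TAT1 and BAP3, amino acid permeases of rich conditions, each had 1 cluster in nitrogen starvation, against 13 and 11 in log phase. FCY21, a relative of the cytosine permease, and HOB2 had 0 clusters in nitrogen starvation and 10 each in log phase, with an interval that ended at 0.699. ALD6, cytosolic aldehyde dehydrogenase, had 3 and 22. KAP95, the nuclear import receptor karyopherin beta, had 1 and 12, EBS1 1 and 13, and VHR2 1 and 14. In the log-phase total RNA list these 10 genes had between 5 clusters, for FCY21, and 47, for ALD6.

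**Figure D2:**
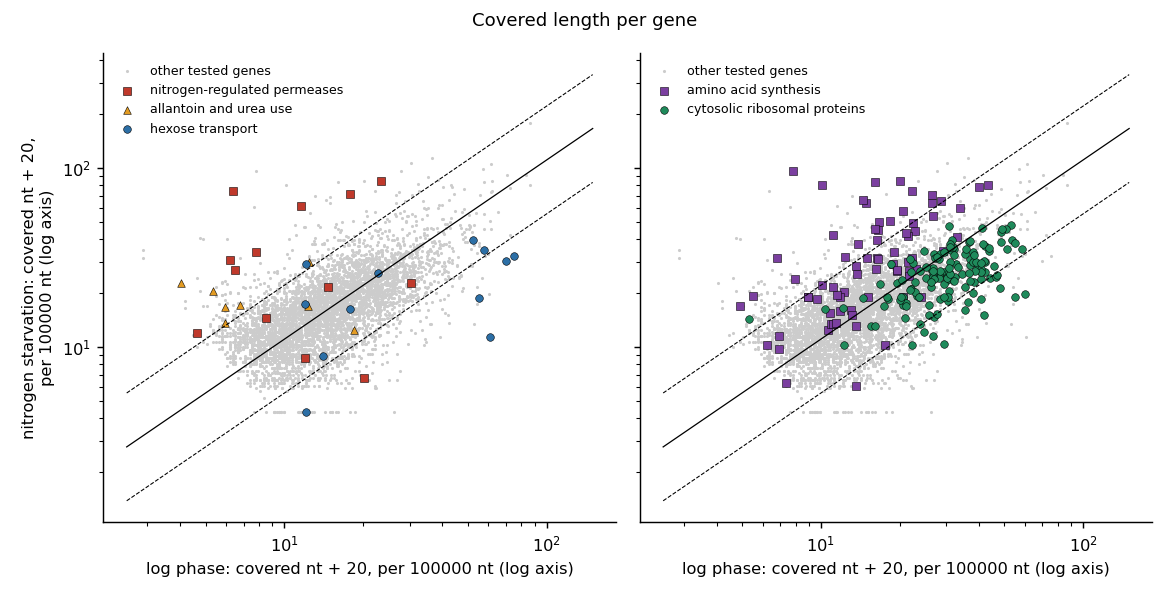
Each point is 1 of the tested genes, with covered length plus 20 nt per 100000 nt of clustered sequence in nitrogen starvation (vertical, log axis) against log phase (horizontal, log axis). The solid line is the median ratio and the dashed lines 2-fold either side; permeases and allantoin genes sit mostly above, hexose transport and ribosomal protein genes mostly below.

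Nitrogen-regulated permeases formed the list with the highest median. Of 13 members, all tested, 8 were at least 2-fold higher, 1 was at least 2-fold lower, and the median log2 ratio was 1.72, beside 0 over all genes by construction and 4.38% of all genes called higher. Together they had 138 clusters in nitrogen starvation and 83 in log phase, a ratio of 2.61 (1.97 to 3.46). MEP2, the high-affinity ammonium transporter and sensor, had 19 and 6 clusters, a ratio of 4.96 (1.91 to 15.2). DUR3, which carries urea and polyamines, had 8 and 2. DAL4, the allantoin permease, had 11 and 4. PUT4, the proline permease, had 9 and 2. Named after their values were seen, GAP1, the general amino acid permease, had 20 and 9 clusters, and CAN1, the arginine permease, 22 and 12. The member that was lower, AGP1, a broad amino acid permease induced by outside amino acids, had 1 and 11 clusters.

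Allantoin and urea genes went the same way. All 8 members were tested, 6 were at least 2-fold higher and none lower, with a median log2 ratio of 1.16. Their counts were small: 46 clusters in nitrogen starvation and 29 in log phase, a ratio of 2.49 (1.53 to 4.10). DUR12, the urea amidolyase, had 8 and 2 clusters, DAL3 5 and 2, DAL1, allantoinase, 6 and 2, and DAL7, a malate synthase of the pathway, 8 and 5. DCG1 had 4 and 2 clusters. The pathway's activators did not follow: DAL82 had 5 and 4 clusters, and DAL81 3 and 11, a log2 ratio of -0.72 with a count interval that included 1. The list's count turned on short clusters: with clusters of at least 10 nt alone, 1 member was at least 2-fold higher.

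Among the GATA factors, 2 of 5 were at least 2-fold higher, DAL80 and GAT1. GAT1, an activator of the system, had 9 clusters in nitrogen starvation and 8 in log phase, so its log2 ratio of 1.48 came from width: 203 nt were covered in nitrogen starvation and 89 nt in log phase. GLN3, the other activator, had 13 and 10 clusters, URE2, which holds Gln3 in the cytoplasm, 7 and 9, and GZF3, a repressor, 7 and 13. Ammonium assimilation had 1 of 4 tested genes called, GDH1, the NADP-dependent glutamate dehydrogenase, with 18 and 6 clusters, a ratio of 4.70 (1.79 to 14.5). GDH1 had 21 clusters in log-phase total RNA, a ratio to that list of 1.13 (0.570 to 2.24). GLN1, glutamine synthetase, had 17 and 13, GLT1, glutamate synthase, 12 and 12, and GDH2, the NAD-dependent dehydrogenase, 25 and 27. Of 8 genes that break down proline, arginine and GABA, 2 were at least 2-fold higher. These were PUT1, proline oxidase, with 11 and 7 clusters, and UGA3, the activator of the GABA genes, with 16 and 8.

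Amino acid synthesis was the largest group that stood higher. Of 74 tested genes 24 were at least 2-fold higher and 1 was at least 2-fold lower, with a median log2 ratio of 0.78, and 68 lay above the median of all genes. The list had 779 clusters in nitrogen starvation and 605 in log phase, a ratio of 2.02 (1.81 to 2.25), where all tested genes together had a ratio of 1.04. LEU1, isopropylmalate isomerase, had 26 and 8 clusters, a ratio of 5.09 (2.24 to 13.0). ILV3, of the branched-chain pathway, had 19 and 8. MET14, which activates sulfate for methionine, had 8 and 3. The gene that was lower, ARO9, an aromatic aminotransferase that also acts in amino acid breakdown, was named after its values were seen and had 1 and 8 clusters. The ratio was above 1 in coding regions (555 and 397 clusters, a ratio of 2.19), in 3′ flanks (167 and 150, a ratio of 1.75) and in 5′ flanks (59 and 61, a ratio of 1.52, 1.04 to 2.21).

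The direction for amino acid synthesis depended on which log-phase list it was set against. The light total RNA list of log phase held 1490 clusters on the same genes, and the ratio of nitrogen to total RNA clusters was 0.693 (0.634 to 0.756), where all tested genes gave 0.844. ARG1 had 23 clusters in nitrogen starvation, 4 in log-phase polyA RNA and 40 in log-phase total RNA. LEU1 had 26, 8 and 27 in the same order, and ILV3 19, 8 and 29. ARG7 had 21, 4 and 25. MET14 had 8, 3 and 0, with an interval of the ratio to total RNA that began at 2.26. Per list size, that ratio was 0.762 for ARG1, 0.868 for ILV3, 1.11 for ARG7 and 1.28 for LEU1. Each of these ratios had an interval that held the 0.844 of all tested genes, so the lower value belongs to the list as a whole. Among the nitrogen-use lists, the permeases and the allantoin and urea genes stood higher against both log-phase lists. The permeases had 103 clusters in total RNA, a ratio of 1.78 (1.36 to 2.31), and the allantoin and urea genes 19, a ratio of 3.21 (1.84 to 5.80). Ammonium assimilation, by contrast, had 72 clusters in nitrogen starvation and 134 in total RNA, a ratio of 0.712 (0.527 to 0.955). The polyA list gave 1.95 (1.36 to 2.80). The total RNA interval of this list holds the 0.844 of all tested genes, so it was not set apart from them there. The total RNA list differs from both polyA lists in its RNA selection, so its values are set beside them and not pooled.

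**Figure D3:**
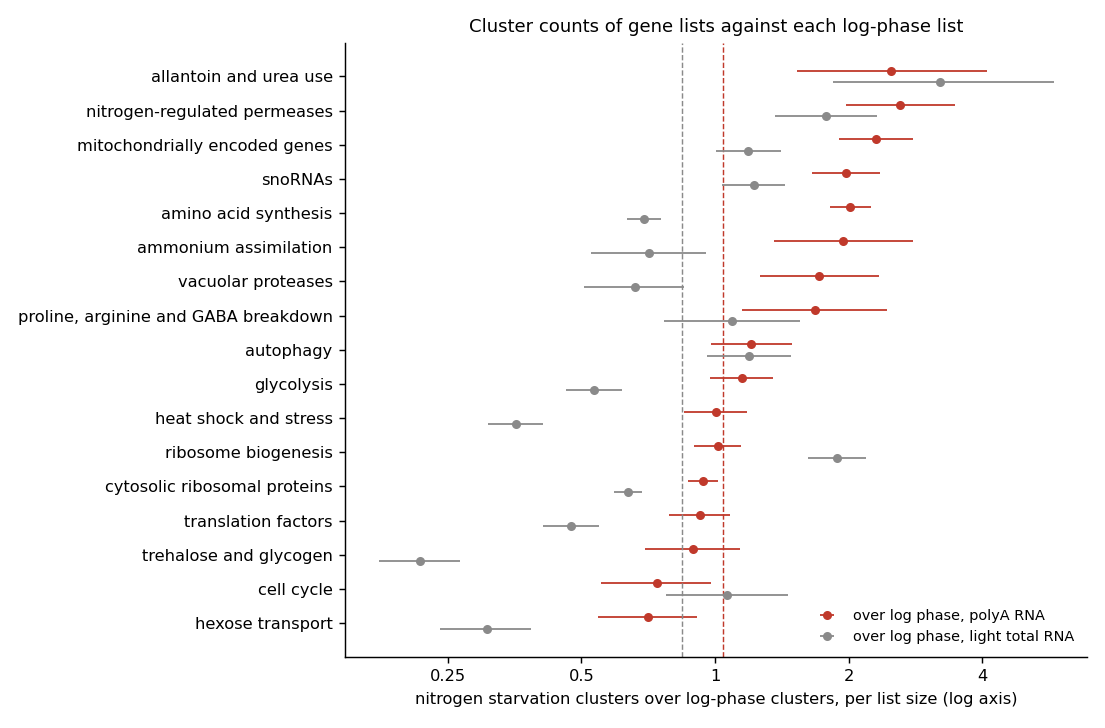
Nitrogen starvation clusters over log-phase clusters per list size for 17 gene lists, with exact 95% intervals, on a log axis. Red points use the polyA list of log phase and grey points its light total RNA list; dashed lines mark the ratios of all tested genes, 1.04 and 0.844. Permeases and allantoin genes lie right of both lines, amino acid synthesis right of the red and left of the grey line.

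Autophagy genes leaned slightly higher. Of 32 tested, 4 were at least 2-fold higher, or 12.5%, beside 4.38% of all genes, and 1 was lower. The median log2 ratio was 0.25. The summed count ratio was 1.21 (0.977 to 1.49) against log-phase polyA RNA, where all tested genes had 1.04. Against log-phase total RNA it was 1.19 (0.957 to 1.48), an interval above the 0.844 of all tested genes. ATG32, the receptor for eating mitochondria, had 11 clusters in nitrogen starvation and 8 in log phase, ATG31 7 and 3, ATG8, the ubiquitin-like protein of the autophagosome membrane, 3 and 2, ATG38 3 and 3, and ATG7, the enzyme that activates Atg8, 1 and 5. Each of these 5 ratios had a count interval that included 1. Of 8 vacuolar proteases 3 were at least 2-fold higher. CPS1, carboxypeptidase S, had 21 and 6 clusters, a ratio of 5.49 (2.14 to 16.6). LAP3 had 11 and 5 and PRB1, proteinase B, 8 and 9, with wider clusters. PEP4, proteinase A, had 15 and 14. The protease list had 92 clusters in nitrogen starvation and 185 in log-phase total RNA, a ratio of 0.659 (0.507 to 0.850). The polyA list gave 1.72 (1.26 to 2.34). The total RNA interval holds the 0.844 of all tested genes, so the list was not set apart from them there. CPS1 had 19 clusters in total RNA, LAP3 22 and PRB1 26.

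The TORC1 list had 1 of 24 genes at least 2-fold higher, MTC5 with 4 and 2 clusters, and none lower, with a median of 0.19. General amino acid control leaned lower, with 0 of 12 genes higher, 2 lower and a median of -0.46. Its summed count ratio was 0.807 (0.568 to 1.13), an interval that included 1 and the 1.04 of all tested genes. The 2 were GCD1 and GCD7, subunits of the exchange factor eIF2B, with 1 and 7 and with 2 and 6 clusters. GCN2, the kinase that senses uncharged tRNA, had 6 and 13. All 3 count intervals included 1.

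Ribosomal protein genes had a larger part of the nitrogen list in their 3′ flanks and a smaller part in their coding regions. Their 138 genes, all tested, had 313 coding clusters in nitrogen starvation and 884 in log phase, a ratio of 0.555 (0.486 to 0.632). In the 3′ flank they had 390 and 432, a ratio of 1.42 (1.23 to 1.63). Introns had 281 and 336, a ratio of 1.31 (1.11 to 1.54), and 5′ flanks 98 and 153, a ratio of 1.00. Over whole genes the count ratio was 0.940 (0.871 to 1.01), so a gene total hides the opposite shifts. In covered length, 17 of the 138 were at least 2-fold lower and 1 higher, with a median log2 ratio of -0.40. RPS2 had 5 and 18 clusters, RPL5 6 and 19, RPL12A 3 and 14, RPL34B 4 and 10, and RPL38 3 and 10.

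Many of these genes have a near-identical copy, and the sources used here do not say how reads matching both were placed. The 20 genes with no A or B copy, a check chosen after seeing the data, had 69 coding clusters in nitrogen starvation and 181 in log phase, a ratio of 0.598 (0.446 to 0.793). Their 3′ flanks had 57 and 63, a ratio of 1.42 (0.974 to 2.06), and their introns 19 and 31, a ratio of 0.961 (0.513 to 1.75), an interval that holds both 1 and the intron ratio of all 138 genes. Gene by gene, the share of clusters in the 3′ flank was higher in nitrogen starvation in 100 of 121 ribosomal protein genes with at least 5 clusters in each list. Over all mRNA genes of that depth it was higher in 1253 of 2235, 56.1%. The median difference was 11.1 percentage points for ribosomal protein genes and 2.56 for all.

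**Figure D4:**
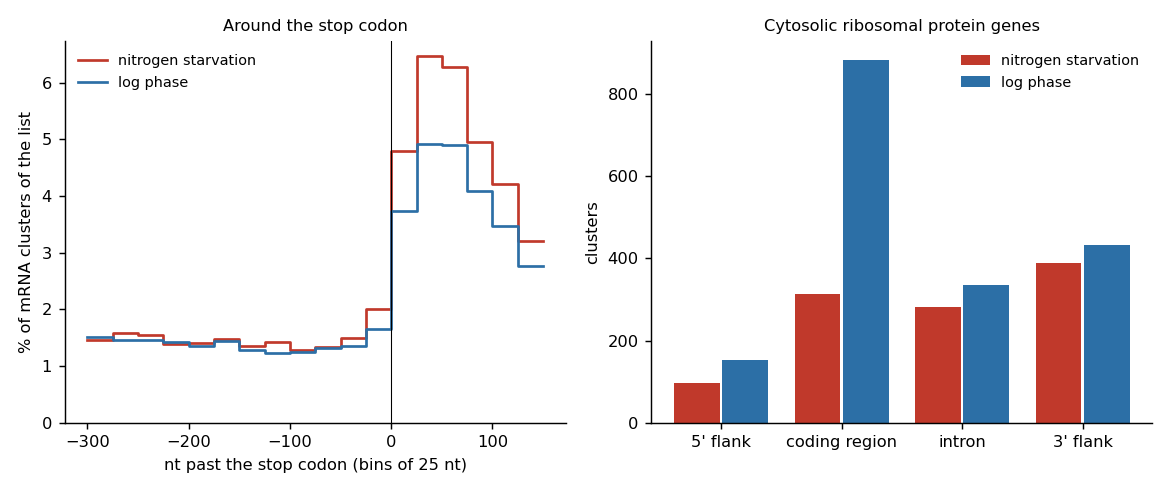
Left, the percentage of each list's mRNA clusters in 25-nt bins around the stop codon, red for nitrogen starvation and blue for log phase; bins past the stop codon are higher in nitrogen starvation (6.47% and 4.92% at 25 to 49 nt). Right, cluster counts in 4 regions of the 138 cytosolic ribosomal protein genes, with 313 and 884 in coding regions.

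Against log-phase polyA RNA, other genes of the translation machinery were called lower less often than ribosomal protein genes. Of 37 translation factors 1 was at least 2-fold higher and 2 lower, with a median of -0.31. Against log-phase total RNA the factors had a summed count ratio of 0.475 (0.410 to 0.548). That lay below the 0.638 (0.593 to 0.686) of ribosomal protein genes and the 0.844 of all tested genes. SUI1, which encodes eIF1, had 3 and 5 clusters covering 35 nt in nitrogen starvation and 199 nt in log phase, and TIF4632, an eIF4G, had 1 and 6. CAM1, a relative of an elongation factor subunit, had 8 and 7. The 3′ flank share was higher in 18 of 22 translation factor genes, with a median difference of 5.84 points. Of 96 ribosome biogenesis genes 3 were higher and 6 lower, shares close to those of all genes, with a median of -0.06. They had 438 clusters in nitrogen starvation and 677 in log phase, a ratio of 1.01, but 308 in log-phase total RNA, a ratio of 1.88 (1.62 to 2.19). Mitochondrial ribosomal protein genes had 0 higher and 2 lower of 53, and a median of 0.02.

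Hexose transport was the list with the lowest median, -0.84. Of 12 tested genes 5 were at least 2-fold lower and 1 higher, with 90 clusters in nitrogen starvation and 200 in log phase, a ratio of 0.705 (0.544 to 0.909). Besides HXT4, these were HXT6 with 7 and 24 clusters, HXT7 with 10 and 29, HXT2, a high-affinity transporter, with 12 and 30, and SNF3, the sensor of low glucose, with 0 and 8. HXT6 and HXT7 are near-identical, so their clusters cannot be assigned with certainty. RGT2, the sensor of high glucose, was the gene that was higher, with 9 and 8 clusters, and was named after its values were seen. Against total RNA of log phase, with 390 clusters, the list's ratio was 0.306 (0.240 to 0.385).

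Cell cycle genes leaned lower: 3 of 16 tested lay above the median of all genes, 1 was at least 2-fold lower and none higher. CLN1 and CLN2, the G1 cyclins, had 1 and 3 clusters in nitrogen starvation, against 8 and 12 in log phase. CLB2, a mitotic cyclin, had 1 and 6, SWI4, part of the factor that switches on the G1 cyclins, 6 and 13, and SWI5 1 and 5. No count interval of these 5 left out 1, but the list's summed ratio was 0.739 (0.553 to 0.980). Against log-phase total RNA, with 92 clusters, it was 1.06 (0.774 to 1.46). That interval holds the 0.844 of all tested genes, so the list was not set apart from them there. Cell wall genes had 5 of 22 at least 2-fold lower, beside 4.9% of all genes, and none higher, while their summed count ratio was 0.971 (0.812 to 1.16). FKS1, the glucan synthase, had 6 and 25 clusters, a ratio of 0.376 (0.126 to 0.940), CWP1 4 and 12, UTR2 4 and 15, YPS1 9 and 21 and HSP150 9 and 21. Core histones had none of 8 called in either direction.

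Of the energy and stress lists, none had more than 2 genes at least 2-fold higher. Glycolysis had 1 of 20 lower, HXK2, the main hexokinase on glucose, with 3 and 9 clusters. Trehalose and glycogen had 2 of 20 lower, or 10%, beside 4.9% of all genes. These were TPS2, trehalose phosphatase, with 3 and 18 clusters and a ratio of 0.261 (0.0493 to 0.895), and TPS3 with 2 and 9. Heat shock and stress had 4 of 31 lower, or 12.9%, beside the same 4.9%. Among them was HSP104, the disaggregase, with 6 and 19 clusters. The 1 higher gene was DDR2, with 10 and 5. The nuclear respiratory chain had 2 of 38 higher, COX9 and COX5B, and 1 lower, COR1 with 7 and 16. The proteasome had 1 of 34 lower, and RNA-binding and decay proteins 3 of 57 lower and none higher. Retrograde response genes had none of 10 called in either direction. Filamentous growth had 1 of 16 lower, MGA1, with 0 and 6 clusters, with an interval of the ratio that ended at 1.33 and so included 1. The summed count ratio of glycolysis was 1.15 against log-phase polyA RNA and 0.534 against log-phase total RNA. In the same order, the nuclear respiratory chain had 1.22 and 0.551, and heat shock and stress 1.00 and 0.356. Trehalose and glycogen had 0.893 and 0.217, beside 1.04 and 0.844 for all tested genes.

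Regulatory non-coding RNAs and their neighbours carried few nitrogen clusters. Of 7 tested, 3 were at least 2-fold lower. IRT1, the non-coding RNA that runs over the IME1 promoter, had 1 cluster in nitrogen starvation and 12 in log phase, a ratio of 0.131 (0.00306 to 0.883). IME1 itself, the master activator of meiosis, had 2 and 12. Both IRT1 and IME1 had 0 clusters in log-phase total RNA. The list's summed ratio was 0.632, with an interval that included 1 (0.372 to 1.04). ICR1, transcribed upstream of FLO11, had 2 and 11, while FLO11 had 3 and 2. The meiosis and quiescence list had 1 of 11 higher and 1 lower. Its RME1, the repressor of IME1, had 3 and 2 clusters and GIS1, a factor of stationary phase, 6 and 24, a ratio of 0.392 (0.131 to 0.984).

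snoRNAs and mitochondrial RNAs took a larger part of the nitrogen list. Of 51 tested snoRNAs 13 were at least 2-fold higher and none lower, with a median log2 ratio of 0.67. SNR10 had 9 and 4 clusters, SNR189 7 and 3, SNR46 7 and 4, SNR85 4 and 2, and SNR81 3 and 2. SNR10 was also the 1 gene called among 6 RNAs of the U3 and rRNA-processing list, and none of 8 tested single structural RNAs was called. Of 18 tested mitochondrially encoded genes 10 were higher and none lower, with a median of 1.17. Q0255 had 14 and 1 clusters, BI3 13 and 2, BI4 15 and 5, AI3 8 and 3, and COB, which encodes cytochrome b, 11 and 6. BI3 and BI4 lie in introns of COB and AI3 in an intron of COX1, so these genes share sequence. In total RNA of log phase the mitochondrial genes had 303 clusters, a ratio of 1.19 (1.01 to 1.40), and the snoRNAs 311, a ratio of 1.22 (1.04 to 1.44). Neither kind is a main target of oligo(dT) selection, and the part of that selection in these differences was not tested.

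Within genes, sites were gained and lost side by side. In the 2277 genes with at least 5 clusters in each list, a median of 30.3% of the bases covered in either list was covered in both, with quartiles of 22.4% and 38.2%. Their 28780 merged sites comprised 4648 nitrogen-only sites (16.2%; 15.7 to 16.6%), 12996 shared sites (45.2%; 44.6 to 45.7%) and 11136 log-phase-only sites (38.7%; 38.1 to 39.3%). Of the 2277 genes, 1875, or 82.3%, had both a gained and a lost site. No lost site was found in 48 genes and no gained site in 371. Deeper genes shared more: 63.5% of the nitrogen clusters were shared in genes with 1 to 4 log-phase clusters and 79.5% in genes with at least 20.

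The balance of gained and lost sites followed the lists. In amino acid synthesis genes of that depth 36.7% of sites were nitrogen only and 17.7% log phase only. In the permeases the shares were 45.7% and 19.6%, over 5 genes. In ribosomal protein genes 9.26% were nitrogen only and 44.9% log phase only, in hexose transport 11.6% and 54.1%, and in cell cycle genes 9.78% and 53.3%. Over all mRNA genes of that depth the shares were 15.9% and 39.2%. These shares use the same clusters as the gene ratios above and are no separate evidence of them.

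Some genes of steady coverage had few covered bases in common between the lists. Among genes within 1.5-fold of the median, GSC2, a glucan synthase of stress and sporulation, had 12 clusters in nitrogen starvation and 15 in log phase, and 6.30% of its covered bases were in both lists. It had 9 gained, 3 shared and 12 lost sites. In log-phase total RNA GSC2 had 83 clusters, and most of its gained sites overlapped one of them. The gained sites at 1489 to 1503 nt and 5690 to 5698 nt from the first coding base did not. FKH2, a forkhead factor of the cell cycle, shared 4.2% with 4 gained, 1 shared and 12 lost sites. AZF1, a zinc finger factor, shared 5.99%, YBL081W 5.88%, HKR1, an osmosensor, 7.06%, with 2 gained, 6 shared and 9 lost sites, and ADE3, of folate metabolism, 7.41%. At the other end FTR1, the iron permease, shared 82.7%: its 5 clusters in each list sat at the same places. PRE2, a proteasome subunit, shared 71.4% with 6 shared sites and none gained or lost. CPR5, a cyclophilin of the endoplasmic reticulum, shared 72.3%, COA3, a cytochrome oxidase assembly factor, 70.3%, AHC2 69.5% and the snoRNA SNR5 72.4%.

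**Figure D5:**
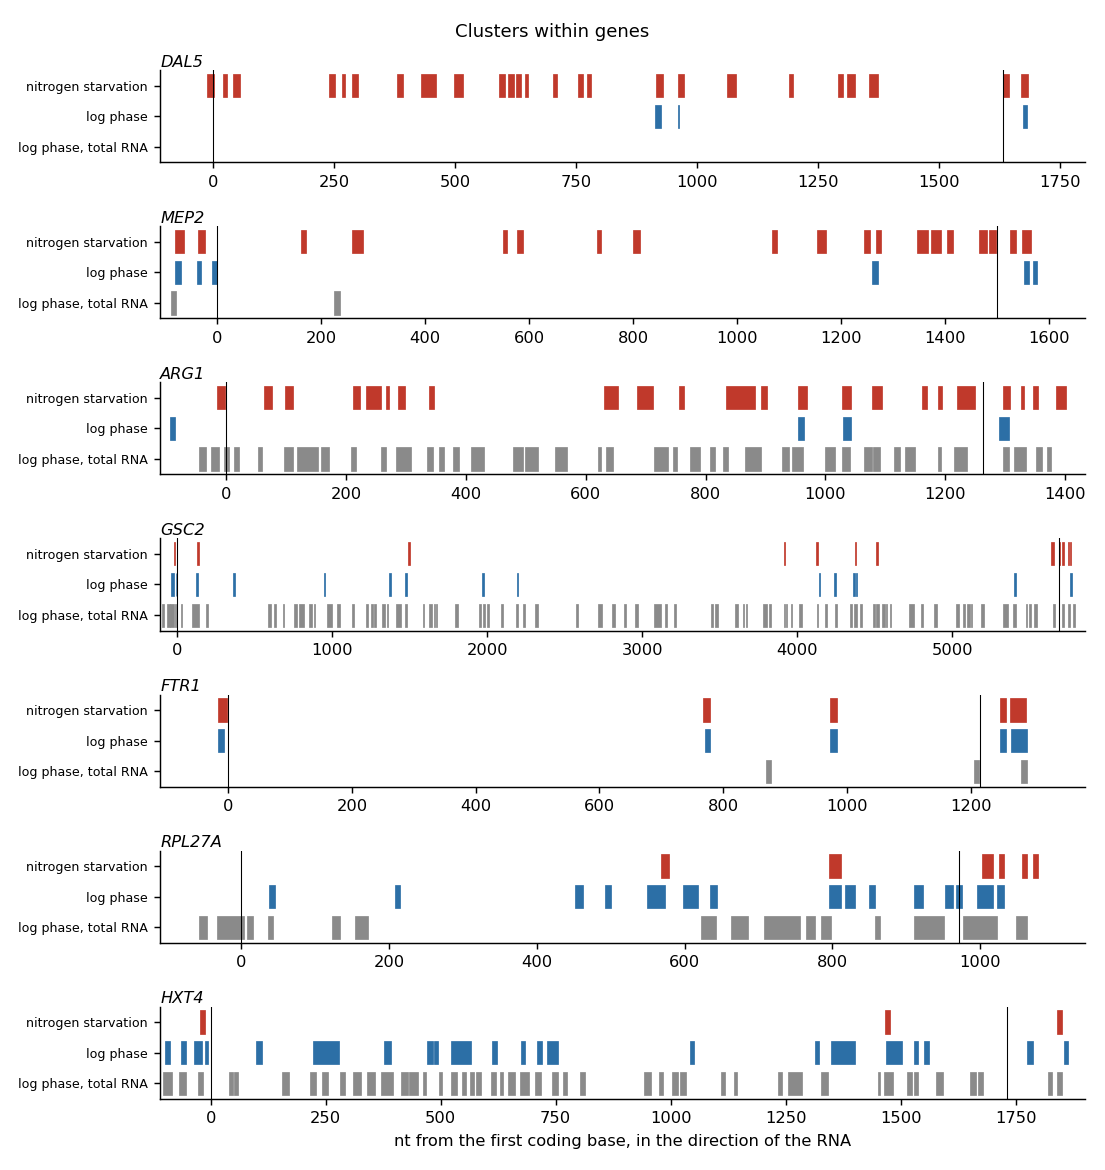
Clusters of 7 genes, placed by distance in nt from the first coding base, with vertical lines at the start and end of the coding span. Rows show nitrogen starvation (red), log phase (blue) and log-phase total RNA (grey); DAL5 has 25, 3 and 0 clusters, FTR1 has 5 at like places in both polyA lists, and HXT4 has 3 and 22 in them. MEP2 and the tracks as a set were chosen after their values were seen.

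The share of a gene's clusters past the stop codon differed most in genes with few clusters. The largest differences towards the 3′ flank were in PHM7, with 5 of 5 clusters there in nitrogen starvation and 4 of 9 in log phase, and in RPL27A, with 4 of 6 and 2 of 15. FEX1, which exports fluoride, had 4 of 5 and 3 of 11, FLC3 5 of 5 and 3 of 6, RPS24A 4 of 6 and 2 of 11, and RPP2B 5 of 6 and 4 of 11. RPL27A, RPS24A and RPP2B encode ribosomal proteins. The largest differences the other way were in OAC1, the mitochondrial oxaloacetate carrier, with 3 of 15 clusters in the 3′ flank in nitrogen starvation and 3 of 5 in log phase, because 12 clusters lay elsewhere in the gene. SNU56 had 1 of 5 and 3 of 5, UGA1, GABA transaminase, 1 of 7 and 4 of 8, GLO3 3 of 6 and 5 of 6, YAP6 1 of 6 and 3 of 6, and GPN3 0 of 5 and 2 of 6.

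The widest gained and lost sites were counted in the 832 genes with at least 8 clusters in each list. These genes had 2386 nitrogen-only and 4847 log-phase-only sites, of which 859 and 2561 were at most 30 nt wide and at least 30 nt from the other list. All 8 widest gained sites were in coding regions: SER33, a serine synthesis enzyme, IDP1, mitochondrial isocitrate dehydrogenase, with 2, PDE2, the high-affinity cAMP phosphodiesterase, ICE2, RPS1B, GPM1, phosphoglycerate mutase, and SOD1, superoxide dismutase. Of these 8, 5 were present in log-phase total RNA, those of SER33, PDE2 and ICE2 being absent there. All 8 widest lost sites were in coding regions too: REF2, RPS8A, HXT3, RPL7B, RPS16B, UBC4, KRE2 and STB3. HXT3 had a shared 29-nt site near the start of its coding region, and its 30-nt site further along was seen in log phase only, both printed above.

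Of 9 sequence motifs of RNA-binding proteins, TATATA and GTAA had intervals that set site classes apart in the 3′ flank. Motifs were searched on the RNA strand only, in 41-nt windows centred on the sites. TATATA, the element bound by Hrp1 in polyadenylation, was in 19.1% of nitrogen-only windows (17.2 to 21.1%), 22.2% of shared (21.1 to 23.2%) and 15.4% of log-phase-only windows (14.2 to 16.7%), and in 13.4% of all windows of the same flanks. The Puf3 motif TGTANATA was in 4.16% (3.26 to 5.28%), 3.38% (2.96 to 3.87%) and 3.67% (3.07 to 4.38%), and in 3.33% of all windows, so the classes could not be told apart. TTTTTT, a run bound by Pub1, was in 15.0%, 16.6% and 16.1% of the 3 classes and in 11.5% of all windows. TCTT, bound by Nab3, was in 31.5%, 33.5% and 34.8%, against 26.0% of all windows. GTAA, bound by Nrd1, was less frequent in shared windows, 14.6%, than in nitrogen-only ones, 17.5%, in 17.3% of log-phase-only ones and in 19% of all windows. TGCAT (Whi3), TGTANNATA (Puf4), the Puf5 motif and CTGGC (Vts1) had overlapping intervals across the 3 classes. T-rich motifs overlap with the T that crosslinking needs, and T made up 39.4%, 40.9% and 39.7% of the bases in these windows, against 35.8% of all windows. A match is a description of the letters in a window.

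Antisense clusters also differed gene by gene, in genes named after their values were seen. Of 228 mRNA genes with at least 8 antisense clusters over both lists, 6 had a count interval above 1 and 11 below. Opposite DGR2 lay 16 clusters in nitrogen starvation and 0 in log phase, with an interval of the ratio that began at 6.04, while its own strand had 2 and 10. Opposite HIR3, a histone gene regulator, lay 10 and 0, and opposite PRR2 9 and 0. Opposite ECM32, a helicase, lay 0 clusters in nitrogen starvation and 17 in log phase, with an interval that ended at 0.380, and its own strand had 7 and 8. GAC1, which targets a phosphatase to glycogen synthase, and MGL2 each had 0 antisense clusters in nitrogen starvation and 12 in log phase. Overlapping ends of unannotated transcripts of neighbouring genes can give antisense clusters, and their part was not tested.

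The genes deleted in the strain served as a check of the label. LYS2 and URA3 had 0 clusters in both lists, LEU2 1 and 1, and HIS3, whose labelled allele is a partial deletion, 3 in nitrogen starvation and 0 in log phase. In log-phase total RNA HIS3 had 12 clusters, and LYS2, URA3 and LEU2 had 0. The label gives the mating type as MATa, yet genes specific to alpha cells carried clusters: SAG1 14 and 18, MF(ALPHA)1 9 and 12, MF(ALPHA)2 9 and 11, and STE3 5 and 13. Genes specific to a cells carried them too, with STE2 at 9 and 9, STE6 at 7 and 11, MFA1 at 4 and 3, MFA2 at 5 and 2 and BAR1 at 2 and 1. The lists alone do not settle the mating type.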

How the data were processed

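The deposited files are cluster lists in BED form, with start and end positions as other values, and the score is 0 on every line of the 3 lists used. The authors made 1 list per group from both replicates, per the labels' descriptions. Bowtie 0.12.7 and build R64 come from the submitters' processing notes. For the cluster caller, its thresholds, the nuclease and reads with several possible places, the sources used here give nothing. Each cluster was assigned by midpoint and strand to the RefSeq annotation of R64, with flanks of 100 and 150 nt. Genes with at least 5 clusters over both lists were compared, leaving out tRNA, Ty and rRNA repeats. Ratios of counts per list size carry Clopper-Pearson 95% intervals (exact, conditional on the sum), and shares carry Wilson intervals. Named genes were the 10 highest and 10 lowest log2 ratios with at least 8 clusters, up to 5 members per gene list (all members of lists of up to 8), and for site turnover the 6 genes at each end. Sites were the 8 widest gained and lost ones of at most 30 nt. The members and lists were chosen with earlier results of these data known, and 1 list name had no match. Python 3.11.15, pandas 2.3.3, NumPy 2.4.6 and SciPy 1.17.1 were used, and the computations were tested on simulated data. Alternatives concerned cluster width, list length, overlap, flank width, added length, filter, measure, joining and window.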

Additional observations from a re-analysis of the deposited data

How the results depend on the processing

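No paired analysis was possible because each list pools both replicates of its group, and for the same reason no replicate could be left out. Of 90 comparisons of 27 main results with an alternative, 52 stayed within the stated error or within 1.5 times a count, 37 moved and 1 reversed. Except where a filter or window is narrower by construction, the cause was not tested.

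With clusters of at least 10 nt only, the overlap was 54.3% of nitrogen and 39.5% of log-phase clusters, the 3′ flank difference 5.05 points (6.03 as reported), the antisense difference -2.99 points, allantoin genes higher 1, ribosomal protein genes lower 28, nitrogen-only sites 24.6%, shared sites 38.8% and TATATA in nitrogen-only windows 21.1%. With the log-phase list limited to its widest clusters, the overlap was 51.3% and 50.5%, the antisense difference -3.24 points, allantoin genes higher 3, snoRNAs higher 8, nitrogen-only sites 29.8% and shared sites 40.6%. An overlap of at least 0.5 of the shorter cluster gave 62.8% and 40.2%. With 50 nt added, 92 genes were higher and 73 lower, with 2 allantoin genes, 4 snoRNAs and 9 ribosomal protein genes called. Cluster counts in place of covered length gave 356 lower genes, 4 ribosomal protein and 3 hexose transport genes lower. Joining clusters within 10 nt gave 9.97% nitrogen-only and 56.4% shared sites. Without flanks, 31 ribosomal protein genes were lower, and flanks of 50 and 75 nt gave a difference of 5.10 points. In 21-nt windows TATATA was in 10.6% of nitrogen-only, 14.6% of shared and 9.20% of log-phase-only windows. There the intervals of nitrogen-only and log-phase-only windows overlapped, so these classes were no longer set apart.

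The other checks, 3 in all, were chosen after seeing the data. Against the light total RNA list, the log2 count ratio relative to all tested genes was -0.28 for amino acid synthesis, reversed from 0.95, -1.46 for hexose transport, -0.40 for ribosomal proteins, 0.53 for snoRNAs and 0.50 for mitochondrial genes. Of list medians, 3 changed sign: regulatory non-coding RNAs to 0.20 with genes of at least 1 cluster, and, without flanks, retrograde response to 0.11 and the nuclear respiratory chain to -0.12.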
